A study of Mus musculus with 24 samples.

Results

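The genes described here are the receptors for interferon and the proteins that carry their signal inward: the receptor chains Ifngr1, Ifngr2, Ifnar1 and Ifnar2, the kinases Jak1 and Tyk2, and the transcription factors Stat2, Irf9 and Irf1. They were chosen by symbol. All 9 had a row among the 49585 mouse genes of the count table, and they were followed through every one of the 24 cells measured. The cells are single burst-forming units-erythroid (BFU-E), early red cell progenitors, from fetal liver of C57/Bl6J mice at embryonic day 14.5, untreated as far as the labels say. They were what remained after bead depletion of cells bearing lineage antigens, Sca-1, CD16/32 or CD41, and were sorted after staining for CD117, CD71 and CD24. There is 1 group, no embryo is named for any cell, and cells are not replicate animals, so every value below describes these cells and carries no test.

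Interferons are secreted proteins that warn cells of infection, and they also act on blood stem and progenitor cells. Type II interferon (interferon gamma) binds a receptor built from Ifngr1, the main ligand-binding chain, and Ifngr2, the signalling chain, which work with the kinases Jak1 and Jak2. Type I interferons (alpha and beta) bind Ifnar1 and Ifnar2, which work with Tyk2 and Jak1, and Stat2 then acts with Irf9 in the nucleus. The type II signal ends at DNA elements called GAS and the type I signal at elements called ISRE, and Irf1 is an early target that itself drives interferon genes.

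Reads were counted without molecular identifiers at a total of 876983 to 2155010 per cell, and levels are given as counts per 1000000 of that total (CPM). Detection in a cell means at least 5 counts of the gene there. A count of 0 allows up to 3 counts, or 1.39 to 3.42 CPM depending on the cell, for counting error only. The erythroid label was checked against markers: all 12 erythroid markers were detected in at least 12 cells, with a summed level of 169 to 7789 CPM and a median of 3965. In 5 cells, numbers 1, 9, 19, 23 and 24, the erythroid factor Klf1 was under 10 CPM, against a median of 411 CPM over all cells, and Mpo, a myeloid granule gene, reached 7227 CPM in cell 1. Of these 5, cell 23 had the highest level of the erythroid marker Gata1 of all 24 cells, 886 CPM. Its erythroid markers summed to 3056 CPM, with 6 of the 12 detected. Cell 23 also had Mpo at 2507 CPM and myeloid markers summing to 4049 CPM, with 6 of 12 detected. Both of these levels were exceeded only in cell 1. In cells 1, 9, 19 and 24 Gata1 was at most 2.85 CPM and the erythroid markers summed to 169 to 450 CPM. Cell 19 stood apart in interferon genes, as given below, and the counts of cells with complete receptor or signalling sets are also given without it and without those 5 cells. The 7 macrophage markers Adgre1, C1qa, C1qb, C1qc, Vcam1, Mrc1 and Cd163 had 0 counts in every cell, and the eighth, Cd68, was detected in cell 12 only. Hepatocyte markers summed to 1214 CPM in cell 10 and to at most 81.0 CPM elsewhere.

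The receptors were present but unevenly so, and the factors behind them were thin. Ifngr1 was detected in 22 of 24 cells and Jak1 in 19, while Irf9 was in 6 and Irf1 in 4. Of the 9 genes, 4 reached 5 counts in at least 12 cells, namely Ifngr1, Jak1, Ifngr2 and Ifnar1. The same held for 26.1% of the 21734 protein-coding genes in the table, and for 51.2% of the 11050 that were detected in at least 1 cell. All 9 genes here were detected in at least 1 cell, as were 50.8% of protein-coding genes. A cell held between 1 and 7 of the 9, with a median of 4. Cells 16 and 19 held 7 and cell 23, the shallowest, held 1.

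**Figure D1:**
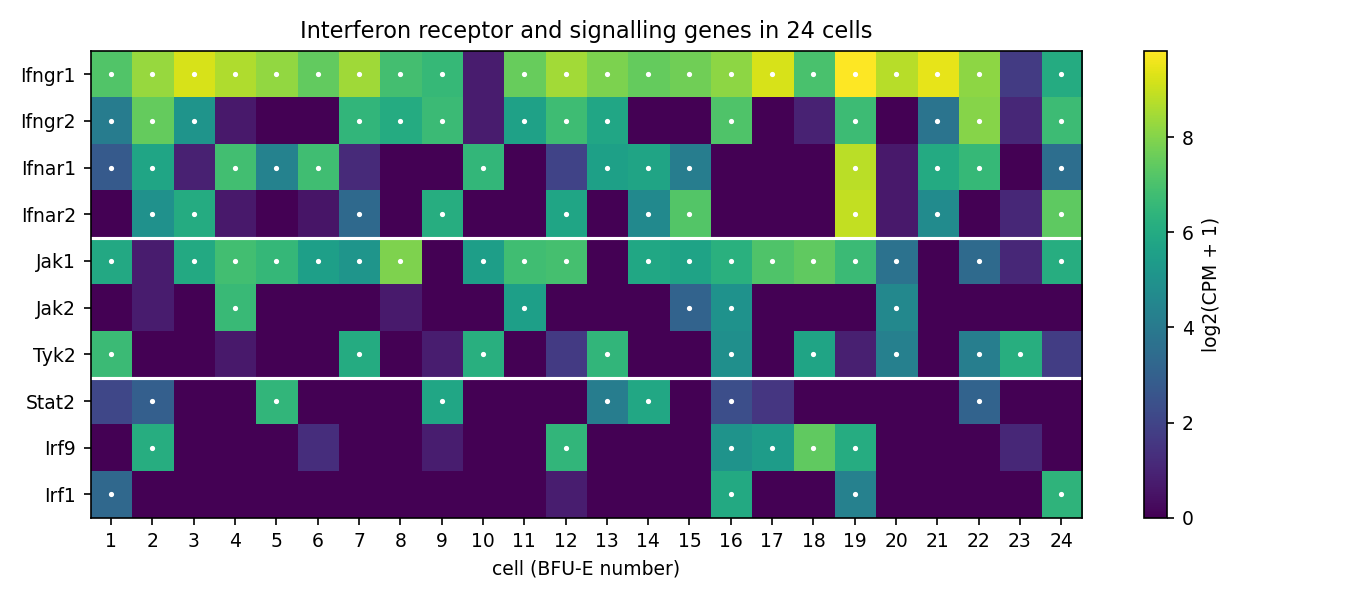
Level of each receptor, kinase and transcription factor gene (rows) in each of 24 cells (columns), as log2(CPM + 1), with Jak2 added as a signalling partner. White dots mark 5 counts or more. The Ifngr1 row is filled in 22 cells and the Irf1 row in 4.

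Ifngr1 (ENSMUSG00000020009, GRCm38 chromosome 10, 19591949 to 19610229, plus strand) was the most abundant of the set. Its level ran from 0.690 to 898 CPM with a median of 257 and a mean of 292 ± 223 (SD over 24 cells, as throughout). It was low in 2 cells only, with 1 count in cell 10 and 2 counts in cell 23, and the other 22 cells lay at 65.0 CPM or more. Hepatocyte markers summed to 1214 CPM in cell 10, and cell 23 was the shallowest cell, at 876983 counts. The highest value of Ifngr1 was in cell 19, and the mean without that cell was 266 ± 187 CPM.

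Ifngr2 (ENSMUSG00000022965, chromosome 16, 91547072 to 91565623, plus strand) was detected in 14 cells. Its level ran from 0 to 258 CPM, with a median of 24.5 and a mean of 54.8 ± 68.8. The cells split into those with the gene, at 12.6 CPM or more with a median of 94.8, and 10 cells with 2 counts or fewer. Nothing lay between those groups.

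The type I receptor chains were patchier still. Ifnar1 (ENSMUSG00000022967, chromosome 16, 91485238 to 91507441, plus strand) was detected in 13 cells, with a lowest level of 0, a median of 8.17 and a highest of 439 CPM, and a mean of 46.7 ± 92.1. Ifnar2 (ENSMUSG00000022971, chromosome 16, 91372783 to 91405589, plus strand) was detected in 10 cells, with a lowest level of 0, a median of 0.592 and a highest of 486 CPM, and a mean of 44.8 ± 104. Both means rest on cell 19. That cell held 39.2% of the summed Ifnar1 level of all 24 cells and 45.2% of the summed Ifnar2 level, and without it the means were 29.6 ± 39.6 and 25.6 ± 46.2 CPM. Part of the Ifnar2 exons, 9.46% of their length, is shared with the predicted gene Gm21970, which had 0 counts in every cell, and how reads there were assigned is not given in the sources used here.

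Jak1 (ENSMUSG00000028530, chromosome 4, 101152367 to 101265282, minus strand), the kinase that both receptors use, was detected in 19 cells. Its level ran from 0 to 243 CPM with a median of 58.0 and a mean of 66.9 ± 61.2, and its highest value was in cell 8. Tyk2 (ENSMUSG00000032175, chromosome 9, 21104068 to 21131243, minus strand), the kinase tied to Ifnar1, was detected in 9 cells, from 0 through a median of 0.761 to 102 CPM, with a mean of 21.6 ± 33.2. In a further 5 cells it had 1 to 4 counts.

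Stat2 (ENSMUSG00000040033, chromosome 10, 128270559 to 128292849, plus strand), the type I transducer, was detected in 7 cells and at 0 in 15. Its median was 0, its highest value 87.0 CPM in cell 5 and its mean 10.02 ± 22.8. Without cell 5 the mean was 6.67 ± 16.2 CPM. Irf9 (ENSMUSG00000002325, chromosome 14, 55603571 to 55610030, plus strand), the DNA-binding partner of Stat2, was detected in 6 cells, with a median of 0, a highest value of 170 CPM in cell 18 and a mean of 19.5 ± 41.2. Without cell 18 the mean was 12.9 ± 26.5 CPM. Its exons overlap those of the neighbouring gene Rnf31 over 123 bases, 2.28% of their length.

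Irf1 (ENSMUSG00000018899, chromosome 11, 53770014 to 53778374, plus strand) was the rarest of the set. It was detected in 4 cells, at 9.08 CPM in cell 1, 18.6 in cell 19, 62.0 in cell 16 and 82.0 in cell 24, and it was at 0 in 19 cells. The mean was 7.19 ± 20.6 CPM, or 3.93 ± 13.3 without cell 24. All 4 of these cells also held Ifngr1, Ifngr2 and Jak1, as did 10 of the 24 cells in all. Of the 4 cells with Irf1, 3 were among the 5 cells low in Klf1.

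Because reads spread along a transcript, levels of the 9 genes were compared with each other after division by exon length. Mean levels were then 103 ± 78.5 CPM per kb for Ifngr1, 14.5 ± 18.3 for Ifngr2, 13.5 ± 31.3 for Ifnar2, 9.26 ± 8.47 for Jak1 and 7.86 ± 15.5 for Ifnar1. They were 3.62 ± 7.66 for Irf9, 3.15 ± 4.83 for Tyk2, 1.81 ± 5.18 for Irf1 and 1.69 ± 3.84 CPM per kb for Stat2. Ifngr1 stood above the next gene by more than the SD of either, and every other neighbouring pair in this order differed by less than its spread over cells. Among the 11050 detected protein-coding genes, 94.5% had a lower mean level per kb than Ifngr1, 68.9% than Ifngr2 and 26.3% than Stat2.

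**Figure D2:**
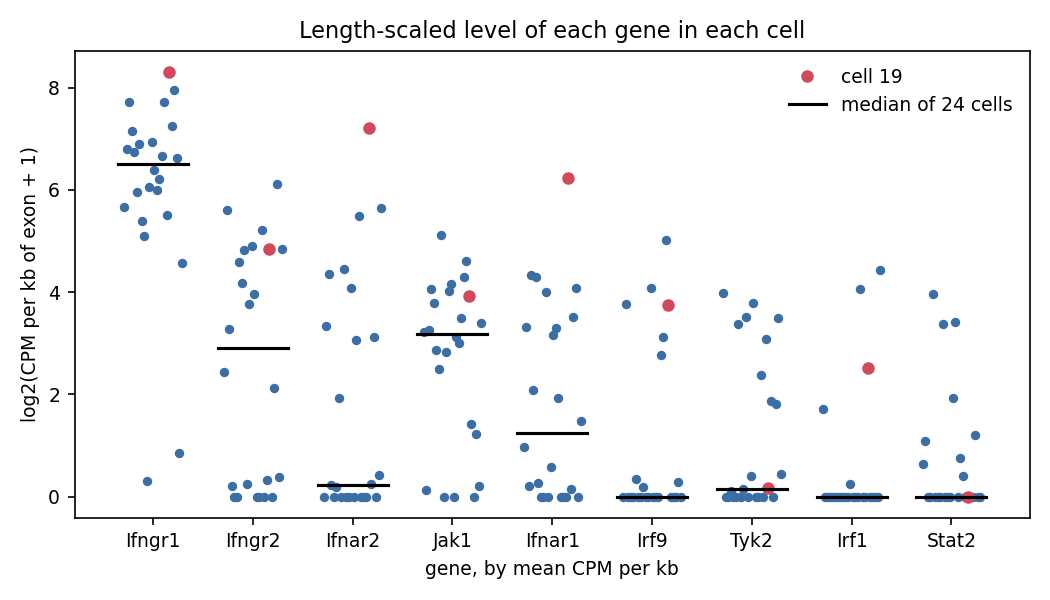
Level of each gene per kb of exon in each of 24 cells, on the scale log2(CPM per kb + 1), ordered by the mean. Bars are medians and the red points are cell 19, which is the highest cell for Ifngr1, Ifnar1 and Ifnar2.

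The receptor chains were then read together, cell by cell. Both type II chains were detected in 14 of 24 cells: every cell with Ifngr2 also had Ifngr1, 8 cells had Ifngr1 without Ifngr2, and cells 10 and 23 had neither. Given 22 and 14 cells with each gene, the shared count could only fall between 12 and 14. Both type I chains were detected in 6 cells, numbers 2, 14, 15, 19, 21 and 24. A further 7 cells had Ifnar1 alone, 4 had Ifnar2 alone and 7 had neither, where the shared count could have run from 0 to 10. Complete pairs of both kinds were found in 4 cells, the type II pair only in 10, the type I pair only in 2 and no complete pair in 8.

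The type II pair was in 13 of 23 cells without cell 19 and in 10 of 19 without the 5 cells low in Klf1. The type I pair was in 5 of 23 and 4 of 19. At 1 count or more the type I pair was in 12 cells, so its number depends on the detection limit.

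With the kinases added, few cells kept a whole set. Jak1 was found in 10 of the 14 cells with the type II pair and in 4 of the 6 with the type I pair. Jak2 (ENSMUSG00000024789), the partner of Ifngr2, was detected in 5 cells at up to 99.0 CPM, and the type II pair with Jak1 and Jak2 was in cells 11 and 16 only, neither of them cell 19 or low in Klf1. The type I pair with Jak1 and Tyk2 was in 0 of 24 cells at 5 counts and in 6 cells at 1 count or more. At 5 counts it was also in 0 without cell 19 and without the 5 cells low in Klf1. The 0 describes these 24 cells, which are not replicates. It sets no limit on the share among other cells or on cells with fewer counts. None of the 6 cells with the type I pair reached 5 counts of Tyk2, which was in 9 cells in all. Over plate columns 1, 2 and 3, Tyk2 was in 6, 2 and 1 cells and Ifnar2 in 2, 2 and 6. The part of the columns and of the low detection of Tyk2 in this 0 was not tested. Jak1 and Tyk2 occurred together in 7 cells.

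**Figure D3:**
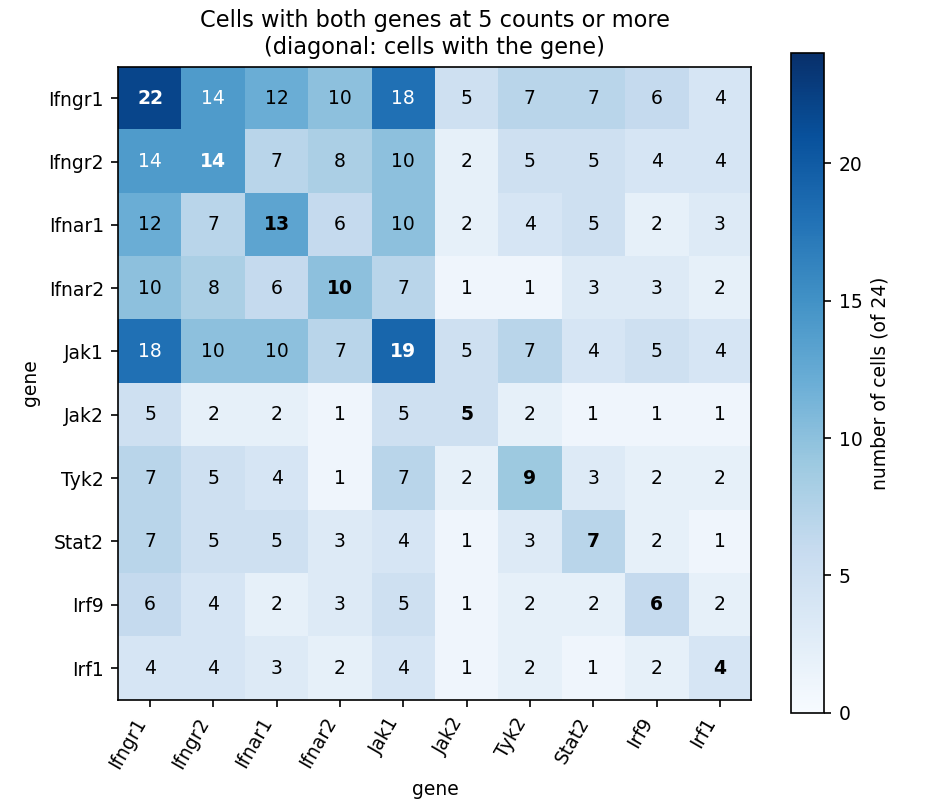
Number of the 24 cells in which both genes of a pair had 5 counts or more, with the number for each single gene on the diagonal. Ifngr1 and Jak1 shared 18 cells, where 17 to 19 were possible, while Ifnar2 and Tyk2 shared 1, where 0 to 9 were possible.

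Stat2 and Irf9, which act together, were each detected in few cells, so few cells could hold both. They shared cells 2 and 16 of the 7 and 6 cells in which each was detected, where the shared count could have run from 0 to 6. Neither is cell 19 or low in Klf1, so the count was 2 without those cells too. The type I pair was found with Stat2 in cells 2 and 14 and with Irf9 in cells 2 and 19, so cell 2 alone held both chains with both factors.

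Levels of the 9 genes were compared in pairs across cells, as a description. The 36 pairwise Spearman rho of log2(CPM + 1) over 24 cells had a median of 0.02 and ran from −0.32 (Ifngr1 with Tyk2) to 0.48 (Ifngr2 with Irf1). Irf1 is at 0 in 19 cells. With the 5 Klf1-poor cells left out, rho ran from −0.54 (Ifnar1 with Jak1, −0.25 over 24 cells) to 0.49 (Irf9 with Irf1, 0.25 over 24 cells), with a median of 0.01, and 8 of the 36 changed sign. Between the partner chains rho was 0.01 for Ifngr1 and Ifngr2 (r 0.22) and 0.21 for Ifnar1 and Ifnar2 (r 0.22), and the latter was 0.09 without cell 19. Stat2 and Irf9 gave −0.02 (r −0.11) and Ifnar1 and Tyk2 −0.09 (r −0.16). The cells differ in depth, and the rank correlation with total counts was 0.13 for Ifngr1, 0.15 for Jak1, 0.02 for Ifnar1, −0.31 for Ifnar2 and −0.38 for Ifngr2, whose part in the pair values was not tested.

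Ifngr2 and Ifngr1 also differed in their relation to Klf1, with rho of −0.47 and 0.32 over 24 cells, given as a description. Ifngr2 was detected in 4 of the 5 cells low in Klf1 and in 10 of the other 19. Its median was 103 CPM over all 5 and 12.6 over all 19, undetected cells included. The lowest level in any cell with Ifngr2 was also 12.6 CPM, so the 2 medians do not compare levels among detecting cells. Ifngr1 was detected in 4 of the 5 and in 18 of the other 19, with medians of 94.0 CPM over all 5 and 286 over all 19. Mpo ran with Ifngr2 (rho 0.49) and Ifngr1 against it (−0.24); the part of myeloid transcripts in these values was not tested.

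Ifnar2, Ifnar1 and Ifngr2 lie in 1 cluster on chromosome 16, with Il10rb between the first and second. Il10rb encodes a chain shared by the receptors for interleukin-10 and for type III interferon. All 4 are on the plus strand, within 193 kb from the start of Ifnar2 to the end of Ifngr2. Il10rb starts 0.575 kb after Ifnar2 ends, and it was detected in 19 cells at 58.2 ± 61.2 CPM (lowest 0, median 36.9, highest 199). The 4 genes were detected together in 3 cells, 3 of them in 9, 2 in 6, 1 in 5 and none in 1 cell. Of neighbours, Ifnar2 and Il10rb shared 8 cells with rho 0.21, Il10rb and Ifnar1 10 cells with rho 0.43, and Ifnar1 and Ifngr2 7 cells with rho −0.04. Whether these values differ from those of genes that lie apart was not tested.

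**Figure D4:**
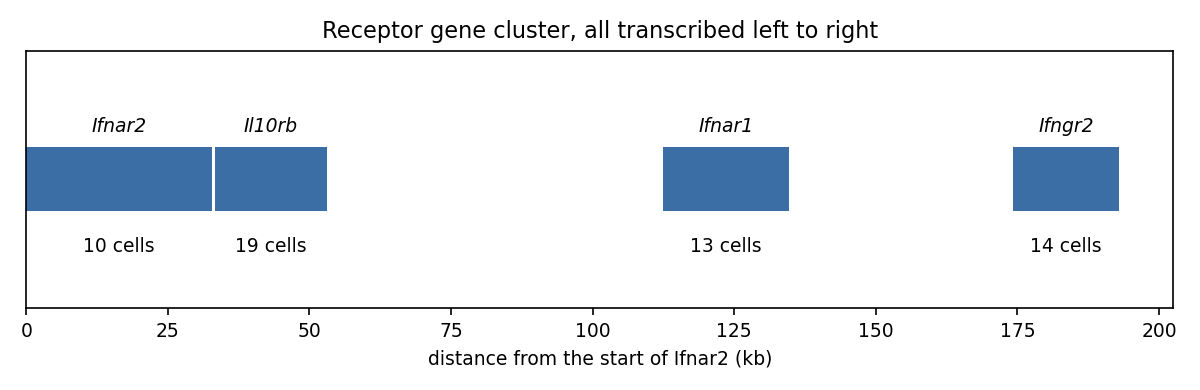
Positions of the 4 receptor genes of the chromosome 16 cluster, in kb from the start of Ifnar2, with the number of the 24 cells in which each was detected. Il10rb, the second gene, was found in 19 cells and Ifnar2 next to it in 10.

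Promoter sequences were set beside these levels for the most and the least detected gene and for Stat2, to show which of them carry the letters of the elements that the pathway acts on. The sequences are the 250 bases before the RefSeq start on GRCm38.p6, read in the direction of transcription, with matches to the GAS letters TTCNNNGAA or the ISRE letters GAAANNGAAA, on either strand, in capitals. RefSeq windows were matched for all 9 genes, 11 windows in all because Irf1 and Irf9 have 2 starts each.

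Irf1 chr11:53769764-53770013, plus strand, GAS match in capitals: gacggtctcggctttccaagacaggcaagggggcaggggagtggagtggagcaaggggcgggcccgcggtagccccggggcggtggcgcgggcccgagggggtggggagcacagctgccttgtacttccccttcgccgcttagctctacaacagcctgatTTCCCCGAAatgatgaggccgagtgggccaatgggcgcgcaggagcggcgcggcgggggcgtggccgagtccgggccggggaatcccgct
Stat2 chr10:128270248-128270497, plus strand, ISRE match in capitals: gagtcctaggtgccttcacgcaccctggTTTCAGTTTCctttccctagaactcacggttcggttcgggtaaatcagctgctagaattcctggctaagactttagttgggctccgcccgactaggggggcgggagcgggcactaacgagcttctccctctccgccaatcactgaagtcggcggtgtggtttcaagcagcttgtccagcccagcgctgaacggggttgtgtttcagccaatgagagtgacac
Ifngr1 chr10:19591699-19591948, plus strand, no match: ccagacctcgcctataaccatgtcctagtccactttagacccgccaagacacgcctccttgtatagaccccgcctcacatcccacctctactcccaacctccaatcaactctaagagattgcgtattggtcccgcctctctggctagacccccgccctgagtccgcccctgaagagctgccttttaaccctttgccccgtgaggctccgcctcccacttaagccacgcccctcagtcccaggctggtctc

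The capitals in Irf1 read TTCCCCGAA and lie at −90 to −82 from the start. Those in Stat2 read TTTCAGTTTC, the ISRE letters on the opposite strand, and lie at −222 to −213. In windows of 300 bases, reaching 50 past the start, GAS letters occurred in 3 of the 11 windows, those of the first Irf1 start, Ifnar2 and Ifnar1, and ISRE letters in 1, that of Stat2. Over all 32851 RefSeq windows of that length the shares were 8.30% and 3.44%. The windows of Ifngr1, Ifngr2, Jak1, Tyk2 and Irf9 held neither, and nor did the window of the second Irf1 start. A match describes letters and is not a site, and no match says only that these letters are not in this window.

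The interferons themselves were not found. All 19 ligand genes measured, Ifng and Ifnb1 among them, had 0 counts in all 24 cells. Ifnlr1, the specific chain of the type III receptor, also had 0 counts, and Il10ra, the partner chain for interleukin-10, was detected in 2 cells.

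Several other signal transducers were detected in more cells than Stat2. Of 8 further JAK and STAT genes 4 were in at least 12 cells (50%). The share was 26.1% of all protein-coding genes and 51.2% of those detected anywhere. Stat5a, which acts below the erythropoietin receptor, was in 19 cells at 135 ± 113 CPM, Stat6 in 15 at 65.5 ± 71.9 and Stat3 in 17 at 57.6 ± 70.3. Per kb of exon their mean levels were 18.9, 14.9 and 6.04 CPM, against 1.69 for Stat2. Of 7 further interferon regulatory factors 2 were in at least 12 cells (28.6%, beside the same 26.1% and 51.2%). They were Irf3, a factor activated downstream of viral nucleic acid sensors, in 20 cells at 79.8 ± 56.5 CPM and Irf2, which can oppose Irf1, in 14 at 11.4 ± 13.2. Irf8, a myeloid and lymphoid factor, was detected in cells 1 and 24 and averaged 30.9 ± 137 CPM, or 3.09 ± 14.6 without cell 1, where it stood at 670 CPM.

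Of 13 genes that restrain the pathway 6 were in at least 12 cells (46.2%), between the 26.1% of all protein-coding genes and the 51.2% of those detected anywhere. The phosphatase Ptpn6 was in 24 cells at 239 ± 144 CPM, from 63.2 through a median of 206 to 562. Ptpn2 was in 20 at 99.3 ± 66.9 and Ptpn1 in 21 at 65.4 ± 52.6 CPM. Socs1 and Socs3, which are induced by cytokines and shut off JAK kinases, were detected in 1 cell and 0 cells. The phosphatases present are also general regulators of cytokine and growth factor receptors.

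Of 47 interferon-induced genes 10 were in at least 12 cells (21.3%, against 26.1% of all protein-coding genes), 36 were detected in at least 1 cell (76.6%, against 50.8%) and 10 had 0 counts throughout (21.3%, against 46.7%). Highest in mean CPM, not scaled by length, were Ly6e at 277 ± 280 in 21 cells and the membrane protein gene Ifitm2 at 192 ± 91.7 in 22. The immunoproteasome gene Psmb8 followed at 82.4 ± 110 CPM in 15. Per kb of exon the means were 73.3 CPM for Ly6e, 294 for Ifitm2 and 24.4 for Psmb8, which puts Ifitm2 above Ly6e. Ifit1, Ifit3, Rsad2, Gbp2 and Cxcl10, which respond strongly to interferon, had 0 counts in every cell, and Isg15 was detected in cell 9 only, at 12.1 CPM. The number of these genes detected per cell ran from 4 in cell 4 to 22 in cell 9, with a median of 10.5. Over 24 cells it had rho 0.13 with the number of the 9 receptor and signalling genes, or 0.02 without cell 19. It also moved with other measures of the cells, with rho −0.59 for Klf1, 0.49 for the mitochondrial share and 0.42 for Mpo, and their part in it was not tested. Cell 9 is among the cells low in Klf1, with Mpo at 738 CPM.

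Cell 19 held the highest level of 12 of the 36 detected interferon-induced genes (33.3%), against 9.49% of the 11050 detected protein-coding genes. No other cell held more than 3 of the 36. Only part of the list was high there: 21 of the 36 were detected in cell 19 and 12 were at 0 there, among them Isg15, Ifit2, Oas1a, Ifitm1, Adar and Ifitm2, which was detected in 22 of the other cells. In that cell Rtp4 stood at 587 CPM and at no more than 203 in any other cell, Lgals3bp at 474 against 72.6, Tap1 at 361 against 121 and Oasl2 at 340 against 0.576 CPM. Usp18, which blocks signalling at Ifnar2, was also highest there at 221 CPM, as was Irf7 at 41.3. These genes were chosen after their values were seen. Ifngr1, Ifnar1 and Ifnar2 had their highest levels in the same cell, the summed level of the 9 genes was 2116 CPM there against at most 803 elsewhere, and Irf9, Irf1 and Jak1 were detected. Stat2 was at 0 and Tyk2 at 1 count.

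Erythroid markers summed to 241 CPM in cell 19, where Klf1 was at 0.810 CPM and Gata1 at 0. The lymphoid genes Rag1 and Il7r were at 245 and 169 CPM, and each was undetected in every other cell. Lymphoid markers summed to 506 CPM in cell 19 and 0 to 214 elsewhere, with Cd3e, Cd79a, Dntt and Cd7 at 0 in every cell. Its myeloid markers summed to 2497 CPM, above the median of 203 over all cells, with Mpo at 275 CPM. Only 3 of the 12 myeloid markers were detected in cell 19, and the median over all cells was also 3. The cell had 1234038 counts and 4800 detected genes, and mitochondrial genes took 4.92%, the highest share of the 24 cells. The part of these differences in its interferon gene levels was not tested.

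**Figure D5:**
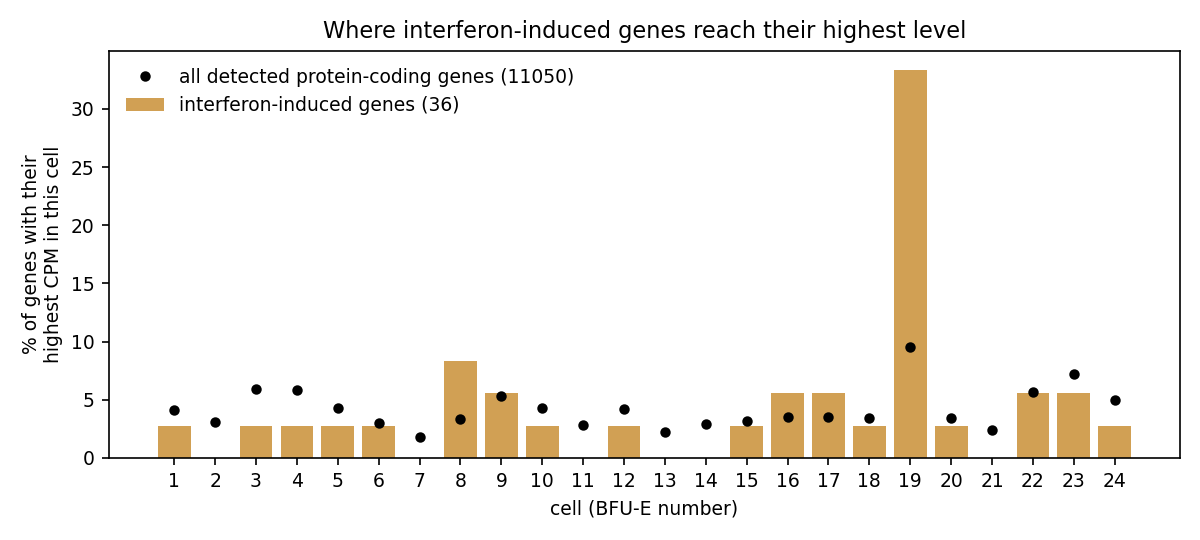
Share of the 36 detected interferon-induced genes whose highest CPM fell in each cell (bars), beside the same share for 11050 detected protein-coding genes (points). Cell 19 has 33.3% of the first and 9.49% of the second.

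For the genes detected in at least 12 cells, the 3 genes most alike in pattern were ranked by Spearman rho over 24 cells among 5612 other named genes, also in at least 12 cells. Ifngr1 was most like Ndufa6 (0.75), a subunit of respiratory complex I, Snrpb2 (0.74), a splicing protein, and Sppl2b (0.72), a membrane protease. Ifngr2 was most like Atp13a2 (0.66), Wsb1 (0.62) and Ttc5 (0.61). Ifnar1 was most like Pus7 (0.68), Srsf4 (0.63) and Cox15 (0.62), and Jak1 most like Rrm1 (0.69), Paics (0.66), both enzymes of nucleotide synthesis, and Srrm1 (0.64). No interferon gene was among these 12, but few could be. Only 10 of the 47 interferon-induced genes were in at least 12 cells and so open to ranking. Each of the 12 is the top of 5612 values over the same 24 cells, and no 2 of the 4 genes shared a neighbour.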

How the data were processed

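Raw read counts per gene, as deposited by the authors, were used for 24 Smart-seq2 cells. Per the submitters' processing notes, STAR 2.4, featureCounts and GRCm38 were used. Which annotation release and counting options were used is not given in the sources used here. Smart-seq2, the method named in the labels, does not mark strand. Symbols and coordinates come from GENCODE M21 on GRCm38 (49326 of 49585 identifiers matched; the rest hold 0.0295% of counts), and promoters from RefSeq.

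CPM is the count per 1000000 counts of the cell, summed over gene rows. Exon length is the union of a gene's exons. Spearman rho and Pearson r used log2(CPM + 1). The alternatives were other detection limits, thinning of every cell to 876983 counts, TMM library sizes from edgeR 4.0.16, totals without mitochondrial and ribosomal RNA, the longest transcript, and leaving out cells. Python 3.11.15, numpy, pandas and scipy 1.17.1 were used. The ranking of like genes was also run on simulated cells, against a known pattern free of counting noise. It was not run there against a sparsely detected gene, so it does not show whether the named neighbours are right.

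The genes and lists were chosen with earlier results of these data known. Named were the 9 genes, Jak2, the 3 genes most alike to each widely detected gene, and Gata1, Klf1 and Mpo. From each pathway list the 3 members highest in mean CPM, not scaled by length, were named if detected in any cell. Other genes were named after their values were seen. A further partner gene of the rule and 1 marker are not reported here. Predicted models and pseudogenes were passed over in the ranking. Reads without molecular identifiers are not independent molecules, so limits cover counting error only.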

Additional observations from a re-analysis of the deposited data

How the results depend on the processing

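At 1 count or more in place of 5, the type I pair was in 12 cells (6 at 5 counts), the type I pair with Jak1 and Tyk2 in 6 (0), the type II pair in 18 (14), the type II pair with Jak1 and Jak2 in 5 (2) and Stat2 with Irf9 in 4 (2). Stat2 with Irf9 was in 1 cell at 10 counts and in 0 at 10 CPM. Thinning every cell to the shallowest left all 5 counts as they were, and so did 10 counts or 10 CPM for the other 4. With genes counted from 6 cells up, 8 of the 9 genes and 18 of the 47 interferon-induced genes passed, in place of 4 and 10; the second is 38.3%, against 35.8% of all protein-coding genes at that limit. Mean levels of the 9 genes moved by less than 1 SD under other scalings and with any single cell left out, and their order per kb was the same with the longest transcript. Of the 36 correlations, 25 kept their sign whichever cell was left out, and 6 had it in all 3 plate columns of 8 cells, with no value in a column for 8 pairs. The settings that leave out cell 10, cell 19 or the cells low in Klf1 were chosen after seeing the data. Leaving out cell 10 kept the type II pair in 14 cells and the type I pair in 6, and left all 5 counts of complete sets as they were.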

Other observations

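By their well names the 24 cells fill 3 plate columns of 8 wells, and some of the genes were unevenly spread over them. Tyk2 was detected in 6, 2 and 1 cells of columns 1, 2 and 3, Ifnar2 in 2, 2 and 6, Ifngr2 in 6, 3 and 5 and Ifnar1 in 6, 3 and 4. Ifngr1 was in 7, 7 and 8 cells, with median levels of 282, 243 and 190 CPM. Jak1 was in 7, 6 and 6, and Irf1 in 3, 0 and 1. Cells 1 and 19, 2 of the 5 low in Klf1, are in column 1.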
